A study of Mus musculus with 8 samples.

Results

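A set of 9 genes of insulin and IGF signalling was followed in cultured mouse oligodendrocyte progenitor cells: the receptors Insr and Igf1r, the receptor substrates Irs1 and Irs2, the phosphoinositide 3-kinase (PI3K) inhibitor Pik3ip1, and the transcription factors Foxo1, Foxo3, Foxo4 and Foxo6. They were chosen by name and role, with earlier results of these data known. All 9 were found among the 56980 genes of the deposited count table and among the 18905 genes with enough counts to be tested. Oligodendrocyte progenitors divide and mature into the cells that wrap axons in myelin in brain and spinal cord. The cells came from cortices of wild-type C57BL/6 mouse pups of either sex at postnatal days 6 to 8, after a lectin step against microglia and endothelial cells and antibody capture on PDGFRα. Expansion medium held PDGF-AA at 10 ng/mL together with 20 ng/mL of bFGF. Both groups then lost bFGF and kept PDGF-AA.

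The high-glucose group (HG, 4 libraries) stayed in 25 mM glucose. The low-glucose group (LG, 4 libraries) was stepped down over days 1, 2 and 3 to 12.5, 5 and finally 2.5 mM. RNA of both groups was taken on day 5. Libraries are paired across the groups by the replicate number of their titles, so each gene is given as 4 pair differences. Each library also has a code, the start of which is shared by HG and LG libraries of the same number and is the same for numbers 1 and 2. The labels do not say what the code stands for. The 4 pairs thus hold 3 codes, and p-values measure the spread between these libraries, which may be technical. Cultured progenitors kept in a mitogen are a model of the dividing cell outside the brain, and nothing was measured in tissue.

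Insulin and IGF receptors are tyrosine kinases at the cell surface. Once bound by hormone they phosphorylate the IRS docking proteins, which recruit PI3K. PI3K activates the kinase AKT, and AKT phosphorylates FOXO factors and holds them in the cytoplasm. When the signal is low, FOXO factors enter the nucleus, and in many tissues Irs2, Insr and Pik3ip1 are among the genes they switch on. IGF signalling is known to support survival, proliferation and maturation of oligodendrocyte progenitors.

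None of the 9 genes passed the test between LG and HG at an adjusted p of 0.05 (edgeR's quasi-likelihood test with the pair as a block). Over all tested genes 79 of 18905 passed, which is 0.418%, with 21 higher in LG (0.111%) and 58 lower (0.307%). With the code in place of the number as the block, 1 gene passed, which was none of the 9. Irs2 stood nearest to the threshold, at 1.25-fold the HG level in LG, and was the only one of the 9 with an unadjusted p under 0.05, as were 2542 genes, or 13.4%, of all tested. Irs2 and Foxo1 were higher in LG in all 4 pairs, which was so for 10.7% of tested genes. None of the 9 was lower in all 4 pairs, against 11.0% of tested genes, and none had groups that did not overlap, against 2.89%. The 9 log2 fold changes had a median of 0.06, with 6 positive and 3 negative. Over all tested genes the median was 0.0015, and 50.4% were positive.

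Library totals ran from 50864130 to 65733928 counts, and the 9 genes had between 127 and 10396 counts in a library, the lowest for Foxo6 in LG library 3. Levels are given as CPM, counts scaled by library size and TMM factor. All 8 markers of oligodendrocyte progenitors were present, with summed levels of 8418 to 11682 CPM in HG and 8836 to 11846 CPM in LG. The 8 microglial markers summed to 1.08 to 2.45 CPM, with 2 at 0, and the 8 endothelial markers to 5.06 to 7.44 CPM, with 2 at 0. The 8 astrocyte markers, led by Slc1a3, summed to 1487 to 1659 CPM in the libraries numbered 1 and 2 and to 518 to 597 CPM in those numbered 3 and 4, without overlap. The progenitor sums also split by number, at 8418 to 9509 CPM in numbers 1 and 2 and 11156 to 11846 CPM in numbers 3 and 4. Between the glucose groups, the neuron sums (72.7 to 101 CPM) and the endothelial sums were higher in LG in 4 of 4 pairs. Of the 8 endothelial markers 6 were under 1 CPM, and Vwf was the highest at a mean of 3.57 CPM. The progenitor, mature oligodendrocyte, mural and fibroblast sums were higher in LG in 3 pairs, and the astrocyte and microglial sums in 2, and their part in the differences of the 9 genes was not tested. In RNA from whole cultures, fewer cells of a type and less RNA per cell cannot be told apart.

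**Figure D1:**
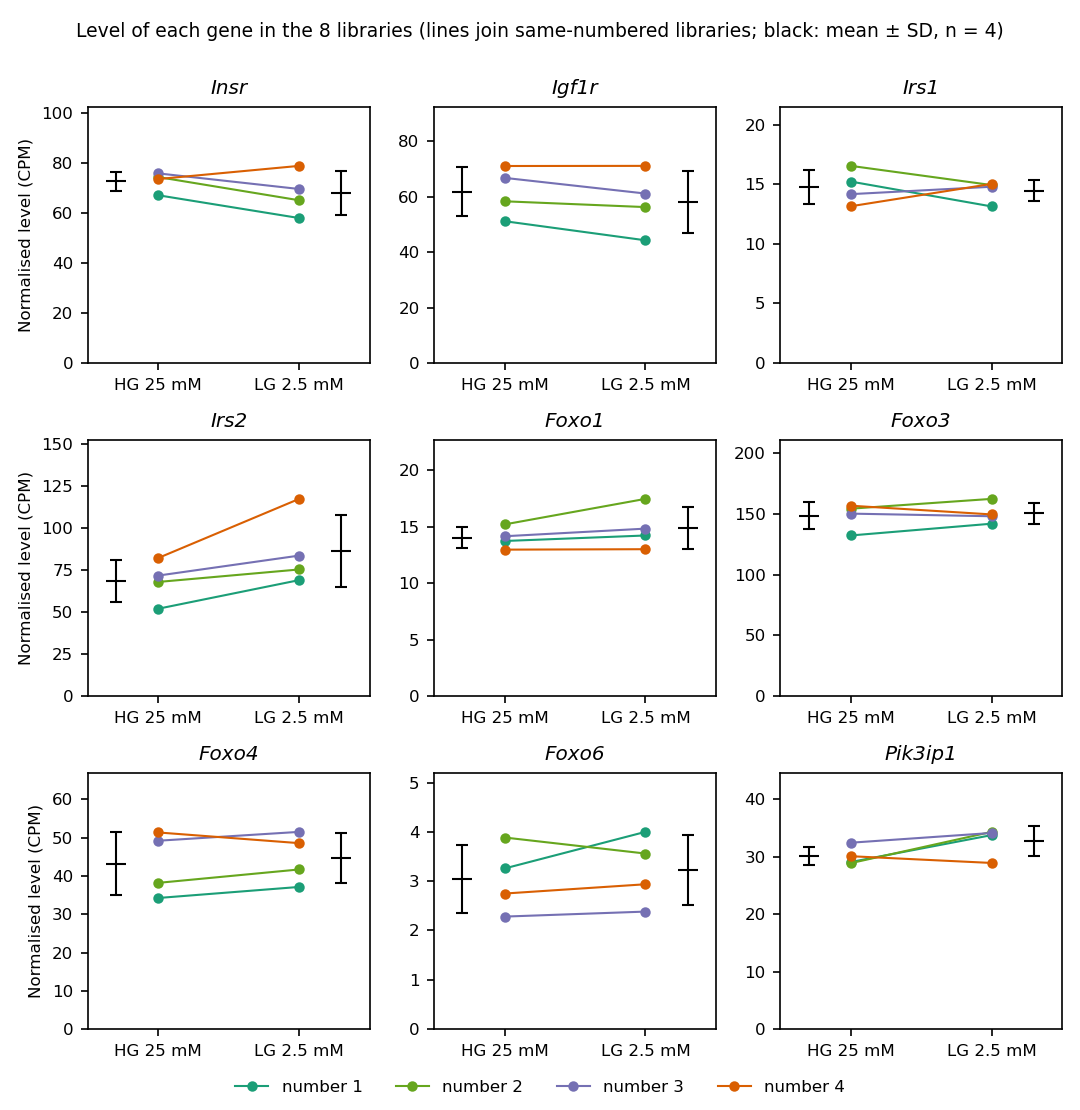
Level in CPM (vertical axes, each from 0) of the 9 genes in HG and LG. Points are libraries, lines join same-numbered libraries, and black bars give the mean and SD of 4 libraries. The 4 Irs2 lines all slope upward from HG to LG, and the groups overlap in every panel.

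The receptors come first. Insr encodes the insulin receptor and lies on chromosome 8 at 3122061 to 3279617, minus strand (positions are GRCm38, GENCODE annotation). Its level was 67.2, 74.5, 75.9 and 73.7 CPM in HG libraries 1 to 4 and 58.1, 65.2, 69.7 and 79.0 CPM in LG libraries 1 to 4. LG was lower in pairs 1 to 3 and higher in pair 4, and LG library 4 held the highest value of all 8. Mean levels (SD, n = 4) were 72.8 ± 3.87 CPM for HG and 68.0 ± 8.75 CPM for LG. The log2 fold change was -0.11 (SE 0.066), with a 95% interval of -0.25 to 0.04 and an edgeR adjusted p of 0.514.

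Igf1r, the receptor for IGF1 and IGF2 (chromosome 7, 67952827 to 68233668, plus strand), was at 51.2, 58.3, 66.8 and 71.0 CPM in HG and at 44.3, 56.2, 61.1 and 71.1 CPM in LG. LG was below HG in pairs 1 to 3, and in pair 4 the values were alike. The means of 61.8 ± 8.86 and 58.2 ± 11.1 CPM gave a log2 fold change of -0.10 (SE 0.060, 95% interval -0.23 to 0.04, edgeR adjusted p 0.517). With offsets for GC content and gene length the log2 fold changes of Insr and Igf1r were both -0.02.

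Per kilobase of exon, which allows genes to be compared with each other, Insr had 5.12 ± 0.493 CPM and Igf1r 3.57 ± 0.567 CPM (SD over 8 libraries), and Insr was above Igf1r in all 8. The ratio of Insr to Igf1r was 1.46 ± 0.156 in HG and 1.44 ± 0.110 in LG, higher in LG in 2 of 4 pairs. The 2 receptors thus kept a ratio that differed between the conditions by less than its SD.

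The substrates Irs1 and Irs2 are paralogous docking proteins that carry the signal from both receptors to PI3K. Irs2 (chromosome 8, 10984681 to 11008458, minus strand) was at 52.0, 67.9, 71.7 and 82.2 CPM in HG and at 69.0, 75.3, 83.6 and 117 CPM in LG. Every LG library was above the HG library of its pair, by 32.7%, 10.9%, 16.6% and 42.7% for pairs 1 to 4. The groups overlapped, since LG libraries 1 and 2 lay below HG library 4, and LG library 4 held the highest value. Of the Irs2 exon bases, 162 overlap 9530052E02Rik on the other strand, which was at 0.0758 to 0.295 CPM.

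The Irs2 means (SD, n = 4) were 68.5 ± 12.5 CPM for HG and 86.3 ± 21.5 CPM for LG. The log2 fold change was 0.32 (SE 0.070) with a 95% interval of 0.17 to 0.48. Its unadjusted edgeR p of 0.000715 ranked 176 of 18905, and the adjusted p was 0.0764. In size the difference was above that of 86.8% of tested genes, against a median absolute log2 fold change of 0.42 among the 79 genes that passed, the smallest of which was 0.30.

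Whether Irs2 counted as called depended on the method. DESeq2, with the same block, gave a log2 fold change of 0.33 and an adjusted p of 0.00394, where 453 genes (2.40%) passed. Without a filter on low counts edgeR gave 0.33 and an adjusted p of 0.000501, where 739 of 34883 genes (2.12%) passed. Without the pairing the edgeR adjusted p was 0.9999, with the code as the block it was 0.327, and with the counts of replicates 1 and 2 summed it was 0.127. Irs2 was higher in LG under all 24 alternative settings tried and passed under 2 of them. These settings refit the same libraries or part of them, so their shared sign is not independent support. The log2 fold change of Irs2 ran from 0.26 without pair 4 to 0.38 without pair 2, and unpaired from 0.15 without LG library 4 to 0.44 without HG library 4.

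Irs1 (chromosome 1, 82233101 to 82291416, minus strand) was at 15.2, 16.5, 14.2 and 13.2 CPM in HG and at 13.1, 14.9, 14.8 and 15.0 CPM in LG. LG was lower in pairs 1 and 2 and higher in pairs 3 and 4. The means were 14.8 ± 1.45 and 14.5 ± 0.894 CPM, with a log2 fold change of -0.026 (SE 0.087, 95% interval -0.22 to 0.17, edgeR adjusted p 0.922). Without the libraries numbered 1 and 2, the log2 fold change was 0.13. Of the 9144 exon bases of Irs1, 2822 (30.9%) overlap Gm9747 on the other strand, which was at 0 in all libraries.

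Per kilobase of exon Irs2 was the more abundant substrate transcript in all 8 libraries, at 12.2 ± 2.99 CPM against 1.60 ± 0.123 CPM for Irs1 over 8 libraries. Divided only by exon bases that no other annotated gene overlaps, an alternative chosen after seeing the data, they were at 12.6 ± 3.07 and 2.31 ± 0.178 CPM. Over all exon bases, the ratio of Irs2 to Irs1 was 4.94, 5.94, 7.32 and 9.04 in HG and 7.60, 7.30, 8.17 and 11.3 in LG. It was higher in LG in all 4 pairs, with a mean log2 difference of 0.35 ± 0.19 (SD), and the groups overlapped. Irs2 relative to Insr was at 1.68, 1.98, 2.05 and 2.42 in HG and at 2.58, 2.51, 2.61 and 3.23 in LG, so here every LG library was above every HG library. The mean log2 difference was 0.43 ± 0.13 (SD). Further ratios taken, Insr to Igf1r and Foxo3 to Foxo1, had overlapping groups. How often ratios between genes separate the groups was not counted. These ratios were taken after the levels were known, so no test was made of them.

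The 250 bases before the start of both substrate genes are shown because they hold the same pair of motifs, while the transcripts differed in level and in their pair differences. Sequences are RefSeq's for GRCm38.p6, where the start of each gene lies upstream of the GENCODE start above. They are Irs1 at chr1:82291440-82291689 and Irs2 at chr8:11008930-11009179, read on the minus strand, with matches in capitals:
Irs1: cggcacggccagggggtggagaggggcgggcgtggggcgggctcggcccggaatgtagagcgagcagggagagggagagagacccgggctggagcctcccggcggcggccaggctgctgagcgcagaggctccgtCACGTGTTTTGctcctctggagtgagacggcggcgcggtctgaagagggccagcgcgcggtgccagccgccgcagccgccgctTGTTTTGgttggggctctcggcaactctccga
Irs2: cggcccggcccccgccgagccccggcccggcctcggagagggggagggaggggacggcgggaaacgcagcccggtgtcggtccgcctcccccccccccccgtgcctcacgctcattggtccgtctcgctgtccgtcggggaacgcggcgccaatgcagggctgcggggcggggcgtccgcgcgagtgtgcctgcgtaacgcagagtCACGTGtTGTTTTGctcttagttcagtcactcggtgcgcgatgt
The capitals mark 2 motifs, searched on both strands. The E-box, CACGTG, is bound by bHLH factors. The core of the insulin response element, a forkhead site, is CAAAACA, and both genes hold it as its reverse complement. Positions count back from the last base before the start and give the leftmost base. In Irs1 the E-box began at -115 and overlapped an insulin response core at -111, with another core at -32. In Irs2 the E-box began at -44 and the core at -37, with a single base between them.

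Of 32851 mouse promoters of this length, 1978 (6.02%) held the E-box, 1827 (5.56%) held the insulin response core and 97 (0.295%) held both. The forkhead consensus GTAAACA was in 1040 (3.17%) and in none of the 6 members with a promoter in the table. Among those 6, the E-box and the insulin response core were found in Irs1 and Irs2 and not in Igf1r, Foxo1, Foxo3 or Pik3ip1. Insr, Foxo4 and Foxo6 were not searched. A match describes letters in a window and no factor binding was measured.

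Pik3ip1 encodes a membrane protein that binds the catalytic subunit of PI3K and restrains it (chromosome 11, 3330401 to 3342971, plus strand). It was at 29.1, 28.9, 32.4 and 30.1 CPM in HG and at 33.8, 34.3, 34.1 and 28.9 CPM in LG. LG libraries 1 to 3 were above every HG library, and LG library 4 was level with the lowest HG library. The means were 30.1 ± 1.63 and 32.8 ± 2.59 CPM, with a log2 fold change of 0.12 (SE 0.071, 95% interval -0.04 to 0.28, edgeR adjusted p 0.494). Without the libraries numbered 1 and 2 the log2 fold change was 0.010. An overlap of 91 exon bases joins Pik3ip1 to Gm12592 on the other strand, at 1.95 to 2.81 CPM.

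The FOXO factors are forkhead transcription factors that AKT keeps out of the nucleus, so transcript levels do not measure their activity. Foxo3 (chromosome 10, 42181841 to 42276755, minus strand), the most abundant per kilobase of exon, was at 132, 154, 150.2 and 157 CPM in HG and at 142, 162, 148 and 149.5 CPM in LG. LG was higher in pairs 1 and 2 and lower in pairs 3 and 4. Its means of 148 ± 11.1 and 150.5 ± 8.59 CPM gave a log2 fold change of 0.022 (SE 0.057, 95% interval -0.10 to 0.15, edgeR adjusted p 0.899).

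Foxo1 (chromosome 3, 52268336 to 52353221, plus strand), a main FOXO factor of liver and muscle, was at 13.7, 15.2, 14.2 and 13.0 CPM in HG and at 14.2, 17.5, 14.8 and 13.0 CPM in LG. LG was higher in all 4 pairs, though by 0.297% in pair 4, and the groups overlapped. The means of 14.0 ± 0.931 and 14.9 ± 1.88 CPM gave a log2 fold change of 0.08 (SE 0.076, 95% interval -0.09 to 0.25, edgeR adjusted p 0.683). Of the Foxo1 exon bases, 674 overlap Gm20402 on the other strand, which was at 0 in all libraries.

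Foxo4 (chromosome X, 101254528 to 101260873, plus strand) was at 34.2, 38.2, 49.2 and 51.3 CPM in HG and at 37.1, 41.7, 51.5 and 48.5 CPM in LG. LG was higher in pairs 1 to 3 and lower in pair 4. With means of 43.2 ± 8.32 and 44.7 ± 6.52 CPM, its log2 fold change was 0.06 (SE 0.063, 95% interval -0.08 to 0.19, edgeR adjusted p 0.738).

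Foxo6, a FOXO factor known chiefly from the brain (chromosome 4, 120267079 to 120287349, minus strand), was the lowest of the 4 per kilobase of exon. It was at 3.26, 3.89, 2.28 and 2.75 CPM in HG and at 4.00, 3.56, 2.38 and 2.94 CPM in LG, higher in LG in pairs 1, 3 and 4. The means were 3.04 ± 0.688 and 3.22 ± 0.708 CPM. The log2 fold change of 0.08 had the widest interval of the 9 genes, from -0.21 to 0.38 (SE 0.134, edgeR adjusted p 0.833).

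**Figure D2:**
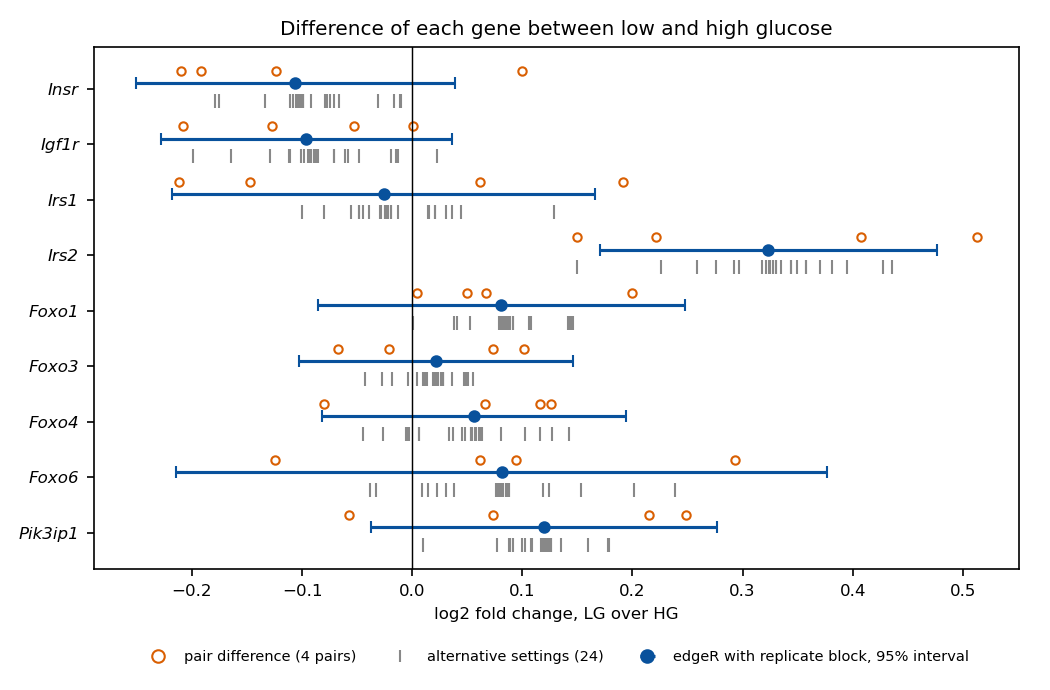
Log2 fold change of LG over HG (horizontal axis) for the 9 genes. Filled points with bars are the paired edgeR estimates with 95% intervals, open points the 4 pair differences, and grey ticks the 24 alternative settings. The Irs2 interval, 0.17 to 0.48, is the only one of the 9 that does not include 0.

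Per kilobase of exon, the mean shares of the 4 FOXO genes differed between the conditions by less than their SD over 8 libraries. That SD includes the spread between replicate numbers, which pairing removes. Foxo3 made up 56.1 ± 2.30% of the summed FOXO level and Foxo4 35.7 ± 3.56%, with Foxo1 at 4.75 ± 0.548% and Foxo6 at 3.44 ± 0.885% (SD over 8 libraries). The mean Foxo3 share was 56.5% in HG and 55.8% in LG, and it was lower in LG in all 4 pairs, within an overall range of 52.9% to 58.9%. The summed level was 34.8 ± 3.41 CPM per kb in HG and 35.7 ± 2.08 CPM per kb in LG.

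The order of the 9 genes per kilobase of exon, as means over 8 libraries, ran from Foxo3 (19.7 ± 1.22 CPM per kb) through Foxo4 (12.6 ± 2.00) and Irs2 (12.2 ± 2.99) to Pik3ip1 (7.36 ± 0.575). Insr and Igf1r followed, and Foxo1 (1.67 ± 0.167), Irs1 and Foxo6 (1.20 ± 0.250) were lowest. Foxo4 was above Irs2 in 6 of 8 libraries, and Foxo1 above Irs1 in 5 of 8, so these neighbours were not separated by their spread. The ranges of Insr and Igf1r and those of Irs1 and Foxo6 also overlapped, as did those of Foxo3 and Irs2 and of Foxo1 and Foxo6. With the longest transcript in place of all exon bases the order was the same for all 9, but Pik3ip1 came to 12.2 CPM per kb, level with Irs2, and Insr and Igf1r to 7.53 and 5.26 CPM per kb. With only exon bases that no other annotated gene overlaps, Irs1 came to 2.31 CPM per kb, above Foxo1 at 1.81.

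**Figure D3:**
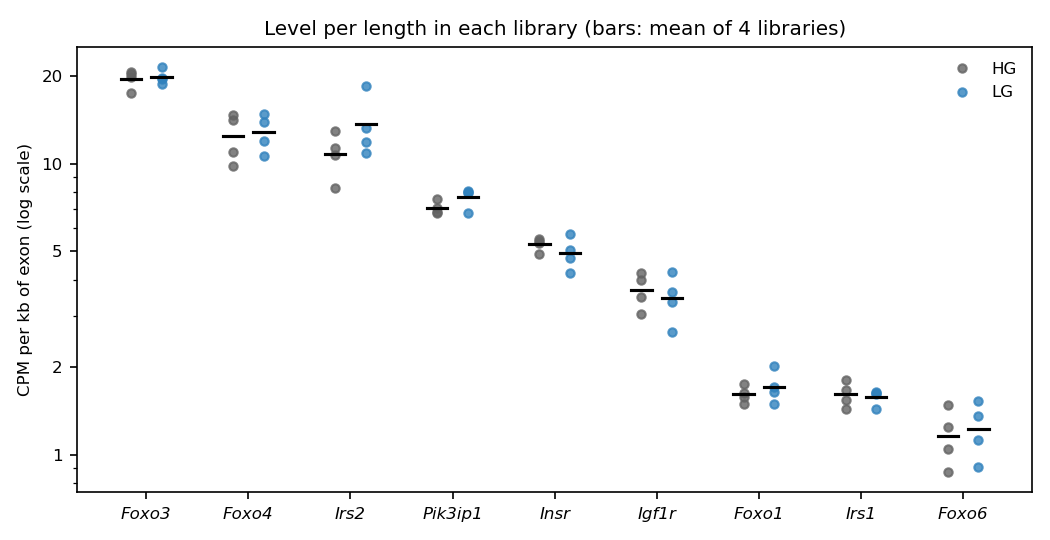
CPM per kilobase of exon (log axis) for the 9 genes, ordered by mean. Points are the 8 libraries, and bars mark the mean of the 4 HG and of the 4 LG libraries. Foxo3 has the highest mean, at 19.7 CPM per kb, and Foxo1, Irs1 and Foxo6 lie lowest. The point of Irs2 in LG library 4, at 18.6, lies above that of Foxo3 in HG library 1, at 17.5.

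The sum of squares of log2 CPM was split into library number, with 3 degrees of freedom, and glucose, with 1, so number takes the larger share by construction when neither has an effect. Number took 94.7% for Foxo4, 92.1% for Igf1r and 91.1% for Foxo6, where glucose took 1.70%, 4.73% and 2.04%. Over all tested genes the median shares were 62.0% for number and 8.02% for glucose. Per degree of freedom, number was above glucose for 7 of the 9 genes. The medians over all tested genes were 20.7% and 8.02% per degree of freedom, and the share of all genes with number above glucose was not counted. Glucose was above number for Pik3ip1, at 32.5% against 11.4% per degree of freedom, and for Irs2, at 26.9% against 22.6%.

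Igf1r and Foxo4 were lower in all 4 libraries numbered 1 and 2 than in all 4 numbered 3 and 4, with means of 52.5 against 67.5 CPM for Igf1r and 37.8 against 50.1 CPM for Foxo4. Foxo6 lay the other way, at 3.68 against 2.59 CPM. The progenitor and astrocyte marker sums given above split the libraries in the same way, the first in the direction of Igf1r and Foxo4 and the second in that of Foxo6. So did the fibroblast sums, at 29.2 to 37.9 CPM against 39.0 to 42.5 CPM with 6 of 8 markers under 1 CPM. The mural list split as well, at 31.6 to 51.5 CPM against 8.81 to 10.8 CPM, but 5 of its 8 markers were under 1 CPM, with Anpep at 0, and Notch3 made up most of the sum at a mean of 23.9 CPM. The part of these markers in the 3 genes was not tested. How many of all tested genes split the libraries in this way was not counted, so the split cannot be called particular to the 3 genes.

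The genes whose profile over the 8 libraries lay nearest to each member were found by the root mean square difference of centred log2 CPM, over 14412 genes with a mean of at least 1 CPM. For Irs2 they were Tnk2, a cytoplasmic tyrosine kinase, at a difference of 0.075, and Usp20, a deubiquitinase, at 0.077, where the Irs2 profile itself had a root mean square of 0.31. Tnk2 and Usp20 rose in LG in the paired fit, with edgeR adjusted p of 0.0346 and 0.0442. Both were picked for closeness to Irs2 over these same libraries, so their rise followed from the choice and is not independent support. Without the pairing 0 genes passed in edgeR and 745 had an unadjusted p under 0.05. For the receptors the nearest were Nfyb and Kbtbd7 (Insr) and Fnip2 and Eya1 (Igf1r). Abhd10 and Mapk6 lay nearest to Irs1, and Dph3 and Usp3 nearest to Pik3ip1. For the FOXO factors they were 9130023H24Rik and Sesn1 (Foxo1), Dab2ip and Acvr1 (Foxo3), Dusp8 and Ogfod2 (Foxo4) and Bcl2l12 and Hbegf (Foxo6). Among the 9 genes themselves, Foxo1 and Pik3ip1 were closest, at 0.11. Their own profiles had root mean squares of only 0.13 and 0.11, and flat profiles lie close by this measure. Likeness of shape apart from flatness was not measured. Insr and Igf1r differed by 0.12, with profiles of 0.13 and 0.22.

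The rest of the pathway was read from 6 lists ordered by role. The lists were chosen with earlier results of these data known, so no share given for them tests the pathway. They held 132 genes, of which 113 were tested. Of these 60 were higher and 53 lower in LG, with a median log2 fold change of 0.0038, and 3 (2.65%) passed the test, against 0.418% of all tested genes. Groups did not overlap for 9 of the 113, against 2.89% of all tested genes, and these were Igfbp3, Igfbp4, Shc3, Pik3r2, Inpp4b, Rps6kb1, Skp2, Sirt2 and Ccnd1. Of those that passed, Inpp4b and Ccnd2 fell and Sgk1 rose. None of the 3 passed without the pairing (edgeR adjusted p 0.9999 each), with the code as the block, or with replicates 1 and 2 summed.

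Upstream of the receptors, 6 of 13 ligands and IGF binding proteins were tested, 1 higher and 5 lower in LG, and none passed. Ins2 had 0 counts in every library, which allows up to 0.0590 CPM in the smallest library (3 counts, counting error only), and Ins1, Igf1 and Igf2 were too low to test. Igfbp3 and Igfbp4 are secreted proteins that bind IGFs. The mean of Igfbp3 was 121 CPM under HG and 107 CPM under LG (log2 fold change -0.18, edgeR adjusted p 0.200), and Igfbp4 at 20.5 and 17.5 CPM (-0.22, 0.224). Igf2r, which clears IGF2, had a log2 fold change of -0.07.

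At the level of the receptors, 18 of 20 adaptors and inhibitors were tested, 9 higher and 9 lower, with a median of -0.0024, and none passed. Grb10, an adaptor that dampens both receptors, averaged 7.08 CPM under HG and 8.93 CPM under LG, a log2 fold change of 0.33 (edgeR adjusted p 0.195). The log2 fold changes were -0.19 for Shc3, 0.17 for Sh2b2 and -0.06 for Sos2.

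Among PI3K subunits and phosphoinositide phosphatases, 12 of 14 were tested, 5 higher and 7 lower, and 1 passed. Inpp4b, a phosphatase that removes the AKT-recruiting lipid PI(3,4)P2, was at 19.6, 15.8, 19.3 and 18.8 CPM in HG and at 9.86, 11.2, 12.2 and 14.1 CPM in LG. Every LG library was below every HG library. Its means of 18.4 ± 1.74 and 11.8 ± 1.79 CPM gave a log2 fold change of -0.64 (SE 0.099, edgeR adjusted p 0.0346), and the call was lost without pair 1 or without pair 2. Inpp5k and Inppl1, which remove the 5-phosphate from PIP3, had log2 fold changes of 0.30 and 0.20, and Pik3cb, a catalytic subunit, of -0.17 (edgeR adjusted p 0.101, 0.171 and 0.236).

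Of 29 AKT, SGK and mTOR kinases and regulators, 27 were tested, 18 higher and 9 lower, and 1 passed. Sgk1, a kinase related to AKT that also phosphorylates FOXO factors, was at 41.5, 49.5, 61.9 and 78.1 CPM in HG and at 54.8, 60.4, 78.5 and 94.8 CPM in LG. LG was higher in all 4 pairs, and the groups overlapped. Its log2 fold change was 0.33 (SE 0.057, edgeR adjusted p 0.0425), close in size to that of Irs2, and the call was lost without pair 1, 2 or 3. Rps6kb1, the S6 kinase that feeds back on IRS proteins, had a log2 fold change of -0.28 (edgeR adjusted p 0.184). Rps6kb2 was at 0.14 and Eif4ebp2, a translation repressor, at 0.13.

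All 23 genes for proteins that bind or modify FOXO factors were tested, 10 higher and 13 lower, and none passed. Sirt2, a deacetylase that acts on FOXO factors, had a log2 fold change of 0.30 (edgeR adjusted p 0.0943). Skp2, which targets FOXO1 for degradation, was at -0.21, Usp7, a deubiquitinase of FOXO4, at -0.11 and Foxk1, a related forkhead factor, at 0.08.

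Of 33 reported FOXO target genes, 27 were tested, 17 higher and 10 lower, with a median log2 fold change of 0.03, and 1 passed. The list was not split into induced and repressed targets, so these counts and the median give no direction of FOXO activity. Ccnd2, a D-type cyclin that FOXO factors repress, was at 573, 524, 301 and 326 CPM in HG and at 437, 409, 246 and 259 CPM in LG. LG was lower in all 4 pairs, while libraries 1 and 2 were above libraries 3 and 4 in both groups. Its log2 fold change was -0.34 (SE 0.057, edgeR adjusted p 0.0392), and the call was lost without pair 1, 2 or 3. Ccnd1, the related cyclin, had a log2 fold change of -0.31 (edgeR adjusted p 0.0747), Klf15 of 0.32 (0.0940) and Klf6 of -0.26 (0.111). Trim63, G6pc and Pck1, textbook FOXO targets of muscle and liver, were too low to test.

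**Figure D4:**
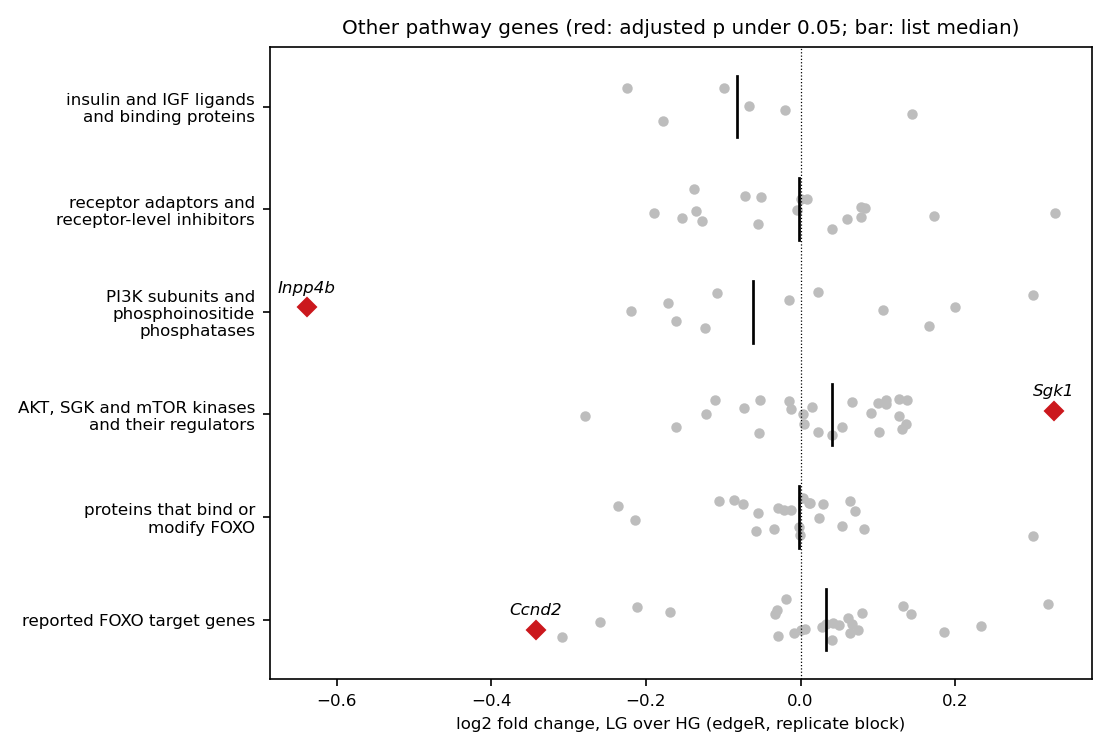
Log2 fold change of LG over HG for the 113 tested genes of the 6 lists, with bars at the list medians. Red points mark the 3 genes with an edgeR adjusted p under 0.05, Inpp4b and Ccnd2 below 0 and Sgk1 above, while the medians lie between -0.08 and 0.04.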

How the data were processed

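RNA of the 8 cultures (100 ng each) was made into mRNA libraries and read as 150-base pairs, per the labels' protocols. The submitters' processing notes name CASAVA 1.8.2, STAR, featureCounts, DESeq2 and the mm10 build. The deposited table holds raw read counts per Ensembl gene, without normalization by the authors. Which gene models and strand option the counting used, and what became of multiply mapped reads, is not given in the sources used here, so reads from overlapping genes cannot be told apart. Symbols, lengths and positions came from GENCODE M21, which named 52125 of the 56980 gene IDs, and promoters from RefSeq.

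LG was compared with HG in edgeR 4.0.16 (R 4.3.3): filterByExpr, TMM, robust quasi-likelihood fit with the replicate number as a block, Benjamini-Hochberg adjustment over 18905 genes. The pairing is by the replicate numbers of the titles. Deviations of same-numbered libraries from the group means correlated at 0.448 to 0.625, above the highest value of 0.419 between other numbers. The SE is the absolute log2 fold change over the square root of F. Log2 CPM used a prior count of 2.

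Alternatives were the fit without the block, the start of the library code as block, replicates 1 and 2 summed, DESeq2 1.42.0, limma-voom (limma 3.58.1), other scalings, filters, offsets for GC content and length (mgcv 1.9.3; GC known for 97.5% of tested genes), and leaving out libraries. The members and lists were chosen with earlier results of these data known. Named list genes are those that passed and, up to 4 per list, those with the largest difference among genes with 1 direction in all 4 pairs and at least 1 CPM, and each member has its 2 nearest profiles. Values per kilobase divide CPM by the union of exon bases.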

Additional observations from a re-analysis of the deposited data

Results flagged for a closer look

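In 72 sets of 4 libraries (the named genes and ratios in each group), the highest or lowest library was checked for a gap to the others above the 95% critical value of Dixon's test. It was met in 6 sets, where chance gives about 1 in 20, or 3.6. On the log2 CPM scale, Irs1 was lowest in LG library 1 at 3.72, with the other 3 at 3.89 to 3.91. Pik3ip1 was lowest in LG library 4 at 4.86, with the others at 5.08 to 5.10. Irs2 relative to Insr was highest in LG library 4, at a log2 ratio of 1.69 against 1.33 to 1.38. Grb10 was also highest in LG library 4, at 3.56 against 2.99 to 3.03. Sirt2 was lowest in LG library 2 at 8.07 against 8.32 to 8.37, and Ccnd1 lowest in HG library 2 at 9.12 against 9.23 to 9.25.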

How the results depend on the processing

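The count of genes that passed, 79, depended on the pairing and the method. It was 0 without the replicate block (with 745 genes at an unadjusted p under 0.05), 1 with the code as the block, 17 with replicates 1 and 2 summed, 453 in DESeq2 and 739 without a filter. With GC and length offsets it was 151 with the block and 0 without it. Leaving out libraries gave 0 to 148, with 6, 0, 39 and 148 without pairs 1, 2, 3 and 4, and 0 without the libraries numbered 1 and 2. The count of the 9 genes that passed, 0, was 1 (Irs2) in DESeq2 and without a filter. The count of list genes, 3, was 0 without the block (with or without offsets), with the code as the block, with replicates 1 and 2 summed and without the libraries numbered 1 and 2, 9 in DESeq2, 11 without a filter, and 0 to 3 over left-out libraries. The order of levels was the same for 9 genes, but for 7 without replicate 3 and for 7 with only exon bases that no other annotated gene overlaps, an alternative chosen after seeing the data. Small log2 fold changes turned sign. Irs1 was 0.031 with replicates 1 and 2 summed, 0.020 and 0.021 with offsets (with and without the block), and 0.13 without the libraries numbered 1 and 2. Foxo4 was -0.0027 and -0.0046 with offsets and -0.0054 without the libraries numbered 1 and 2, and Foxo3 was -0.042 there. Over left-out libraries, Irs1 ran from -0.10 to 0.044, Foxo3 from -0.028 to 0.055, Foxo4 from -0.045 to 0.14, Foxo6 from -0.038 to 0.24 and Igf1r from -0.20 to 0.023. The cause of these shifts was not tested. Insr, Irs2, Foxo1 and Pik3ip1 kept their sign in all 24 alternatives, which refit the same libraries or part of them, but not their size. In unpaired fits Insr was -0.18 without LG replicate 4 and -0.031 without LG replicate 1, and it was -0.0099 without the libraries numbered 1 and 2. Foxo1, unpaired, was 0.00056 without LG replicate 2 and at most 0.15 (without LG replicate 4), and Pik3ip1 ran from 0.010 to 0.18.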

Other observations

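Some genes of the pathway lists, chosen after their values were seen, separated the libraries numbered 1 and 2 from those numbered 3 and 4. Igfbp5, a secreted IGF binding protein, was at 51.4 to 61.1 CPM in the 4 libraries numbered 1 and 2 and at 5.46 to 8.86 CPM in the 4 numbered 3 and 4. Igfbp2 was at 173 to 196 CPM against 96.4 to 125 CPM, and Klf15 at 18.5 to 29.5 CPM against 11.1 to 14.4 CPM, while Klf15 was also higher in LG in 4 of 4 pairs. The progenitor, astrocyte, mural and fibroblast marker sums split the same libraries, and their part in these values was not tested.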
